A study of Mus musculus with 8 samples.

Results

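The 10 genes described here encode 3 Notch receptors (*Notch1*, *Notch2*, *Notch3*), 1 of their ligands (*Jag1*), the DNA-binding factor of the pathway (*Rbpj*), 2 Mastermind coactivators (*Maml1*, *Maml2*) and 3 transcriptional repressors that Notch activates (*Hes1*, *Hes5*, *Hey1*). They were chosen by gene symbol from the RNA sequencing table of the prefrontal cortex (PFC), and all 10 were among its 15039 genes. Each gene was read as 4 differences, the value in an Rnf146 library minus the value in the eGFP library with the same replicate number.

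The table holds 8 libraries of PFC tissue from wild-type male mice of the strain C57BL/6NCrljOri, 4 Rnf146-overexpressing and 4 eGFP-overexpressing. At the age of 6 weeks the Rnf146 group was injected bilaterally with AAV2/1-hsyn-RNF146-eGFP and the eGFP group with AAV2/1-hsyn-eGFP, so both groups carried an AAV and expressed eGFP. The PFC was dissected 4 weeks later. The hsyn promoter drives expression in neurons, whereas the libraries were made from all cells of the tissue, and the study took mice that overexpressed Rnf146 and had social deficits for sequencing. *Rnf146* itself was higher in all 4 pairs, by 2.51 to 2.82 on the log2 scale, as the labels require. Vector and endogenous *Rnf146* RNA were not told apart.

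The deposited values are on a log2 scale and run from 7.86 to 18.8, with a median of 9.87 over the gene means. The authors had centred them within pairs: for every gene, the eGFP value plus the Rnf146 value is the same in each of the 4 pairs. A gene therefore carries its mean and 4 independent differences, and its groups do not overlap exactly when all 4 differences have the same sign. A lowest value this far above 0 means that the scale has an offset, so differences of weakly expressed genes may be compressed and are not log2 fold changes of counts. Whether transcript length entered the values is not given in the sources used here, so levels are compared between libraries and not between genes. In bulk tissue, fewer cells of a type and less RNA per cell cannot be told apart. Depth per library is unknown. No label states whether same-numbered mice shared a litter or day. The p-values of limma measure the spread between these pairs, pulled toward the spread of genes of similar level.

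Notch receptors are membrane proteins that ligands of the Jagged and Delta families bind on a neighbouring cell. Ligand binding leads to cleavage by ADAM proteases and then by γ-secretase, which frees the intracellular domain to enter the nucleus. There it joins RBPJ and a Mastermind protein on DNA, and genes of the Hes and Hey families are transcribed. In the cortex the pathway is known for keeping neural progenitors undifferentiated, and in the adult brain its receptors are found in astrocytes, blood vessels and neurons. RNF146 is a ubiquitin ligase that recognizes proteins modified with poly(ADP-ribose), among them Axin of the Wnt pathway.

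The RNA of the Hes and Hey genes is the most direct readout of the pathway among the 10 genes. The 250 bases before the start sites of *Hes1* and *Hes5* are printed because they hold the letters that RBPJ binds and because these genes are the targets to which the values of the receptors and coactivators below refer. They were read from GRCm39 at the canonical transcript of GENCODE vM39, on chr16:29883877-29884126 and chr4:155045123-155045372, both on the plus strand. Capitals mark the core of the RBPJ motif, TGGGAA, or its reverse complement TTCCCA.
Hes1: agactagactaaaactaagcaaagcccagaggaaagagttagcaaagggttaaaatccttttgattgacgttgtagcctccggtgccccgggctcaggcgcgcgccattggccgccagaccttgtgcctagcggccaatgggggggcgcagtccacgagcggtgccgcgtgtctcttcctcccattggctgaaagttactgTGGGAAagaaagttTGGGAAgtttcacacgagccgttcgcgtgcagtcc
Hes5: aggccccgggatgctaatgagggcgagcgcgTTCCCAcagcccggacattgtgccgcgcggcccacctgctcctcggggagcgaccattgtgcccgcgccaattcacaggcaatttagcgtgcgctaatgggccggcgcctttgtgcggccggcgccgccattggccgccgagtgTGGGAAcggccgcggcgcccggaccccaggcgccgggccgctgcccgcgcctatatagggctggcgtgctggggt

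*Hes1* held 2 matches on the plus strand, from -49 to -44 and from -35 to -30 relative to the start site, and *Hes5* held 1 on each strand, from -219 to -214 and from -75 to -70. No match overlapped another. *Hey1* and *Rbpj* held 1 match each in windows of the same length, and the other 6 genes held 0. On either strand, 22.7% of the windows of 21751 protein-coding genes held a match, and 3.06% held more than 1. A match describes the letters and does not show that the site is bound.

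None of the 10 genes passed the test, limma with a replicate block and a Benjamini-Hochberg adjusted p of 0.1 or less over all 15039 genes. Of all genes tested, 1.25% were called, 0.818% as higher and 0.432% as lower in Rnf146-overexpressing mice. At an unadjusted p under 0.05 there was 1 member, *Maml2*, against 12.4% of all genes. The mean difference was above 0 for 7 members and below 0 for 3, and ran from -0.07 for *Hes1* to 0.17 for *Maml2*. The median absolute difference of the members was 0.05, and it was 0.05 over all genes as well. The groups did not overlap for 2 of the 10 members, *Maml2* and *Hes1*, where 20.6% of all genes showed this. Without the block, which takes the centred values for 8 independent libraries, *Maml2*, *Jag1* and *Hes1* were called, beside 21.5% of all genes.

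**Figure D1:**
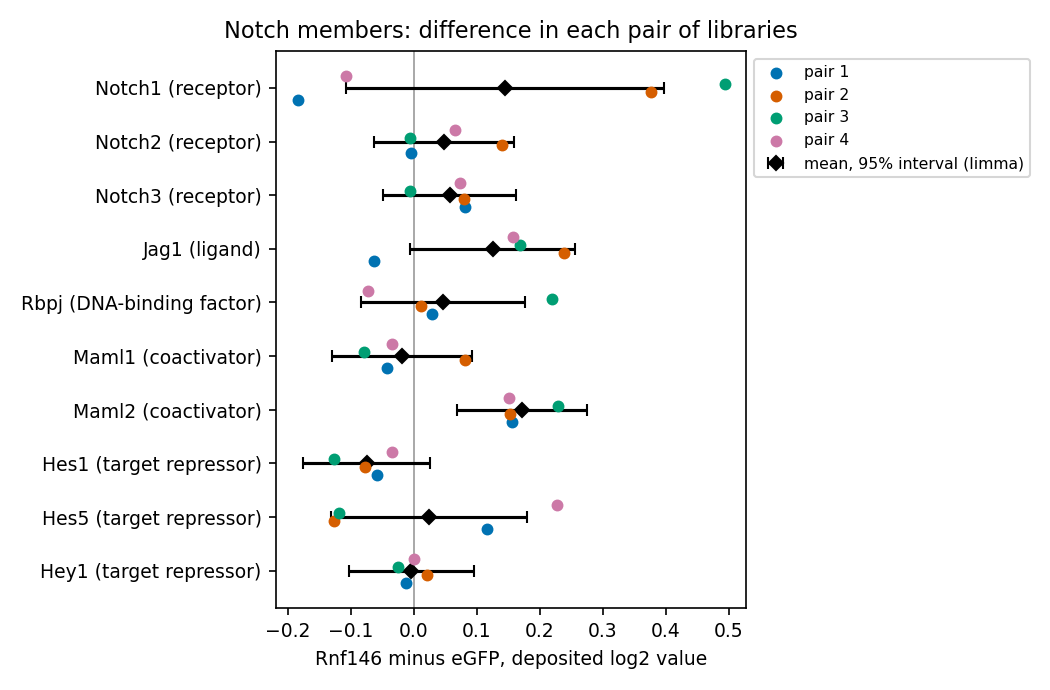
Differences between the Rnf146 and the eGFP library of each pair (x axis, deposited log2 values) for the 10 genes (y axis, with their roles). Coloured points are the 4 pairs, and black diamonds with bars are the mean and limma's 95% confidence interval. The interval lies above 0 only for *Maml2*, and the points of *Notch1* have the widest spread.

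*Notch1* (chromosome 2 of GRCm39, 26347915 to 26406675, minus strand) encodes the receptor best known from neural progenitors. Its values in the eGFP libraries 1 to 4 were 10.49, 10.21, 10.16 and 10.46, and in the Rnf146 libraries 10.31, 10.59, 10.65 and 10.35. The groups overlapped, with the Rnf146 library higher by 0.38 and 0.49 in pairs 2 and 3 and lower in pairs 1 and 4, where the differences were -0.18 and -0.11. The mean difference, 0.14 ± 0.34 (SD, n = 4 pairs), did not exceed the spread between pairs, with an adjusted p of 0.655 from limma and a 95% confidence interval from -0.11 to 0.40. When the mean of 11 striatal and septal markers entered the fit as a covariate beside the replicate block, which leaves 2 residual degrees of freedom, the difference of *Notch1* turned to -0.13 (adjusted p = 0.881 from limma). Without pair 1 the mean was 0.25 and without pair 3 it was 0.028, so its size rested on which pairs were included.

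*Notch2* (chromosome 3, 97920800 to 98057677, plus strand) and *Notch3* (chromosome 17, 32339794 to 32385893, minus strand), the latter a receptor of mural cells around blood vessels, had smaller mean differences than *Notch1*. For *Notch2* the differences were -0.0049, 0.14, -0.0067 and 0.07, on average 0.05 ± 0.07 (SD, n = 4 pairs) and a 95% confidence interval from -0.06 to 0.16. Without pair 2 the mean of *Notch2* was 0.018. For *Notch3* the differences were 0.08, 0.08, -0.0057 and 0.07, on average 0.06 ± 0.04 (SD, n = 4 pairs) and an interval from -0.05 to 0.16. Neither receptor was called, with adjusted p-values of 0.747 and 0.673 from limma. All 7 marker genes of mural cells were in the table, and their average difference was 0.06 ± 0.07 (SD, n = 4 pairs), with library means of 9.55 to 9.62 in the eGFP group and 9.60 to 9.67 in the Rnf146 group. The part of mural cells in the values of *Notch3* was not tested.

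*Jag1* (chromosome 2, 136923373 to 136958693, minus strand) encodes Jagged 1, a ligand that activates Notch receptors on adjacent cells. Its values were 8.96, 8.81, 8.84 and 8.85 in the eGFP libraries and 8.89, 9.04, 9.01 and 9.003 in the Rnf146 libraries. The Rnf146 library was higher in pairs 2, 3 and 4, by 0.24, 0.17 and 0.16, and lower in pair 1, where the difference was -0.06. Pair 1 alone made the groups overlap: its eGFP library was the highest of that group and its Rnf146 library the lowest of the other. The mean difference, 0.13 ± 0.13 (SD, n = 4 pairs), did not exceed the spread between pairs, with an adjusted p of 0.427 from limma. The 95% confidence interval ran from -0.0064 to 0.26. Without pair 1 the mean was 0.19, and the adjusted p of 0.163 still missed the threshold.

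The signs of *Jag1* in the 4 pairs were shared by 4 of 11 marker lists, those of striatum, oligodendrocytes, oligodendrocyte precursors and interneurons, and by 7.97% of all genes. The 9 striatal genes, all in the table, differed on average by -0.11, 1.36, 0.74 and 0.30, and the 7 oligodendrocyte genes, all in the table, by -0.14, 0.50, 0.95 and 0.57. Library means of the striatal list ran from 10.01 to 10.74 in the eGFP group and from 10.63 to 11.36 in the Rnf146 group. The 5 precursor genes, all in the table, differed by -0.12, 0.19, 0.27 and 0.24, and the 6 interneuron genes, all in the table, by -0.01, 0.09, 0.14 and 0.10. Library means of the oligodendrocyte list ran from 12.32 to 12.86 in the eGFP group and from 12.72 to 13.26 in the Rnf146 group. For the precursor list they ran from 10.42 to 10.62 and from 10.49 to 10.69, and for the interneuron list from 10.32 to 10.39 and from 10.38 to 10.46. With the same covariate of striatal and septal markers, the difference of *Jag1* was 0.008 (adjusted p = 0.989 from limma). In that fit the difference of *Hes5* grew from 0.02 to 0.16, and that of *Maml2* stayed at 0.17. The fit left 2 residual degrees of freedom, and 5 of all 15039 genes were called in it. The covariate includes *Zic4* and *Slc5a7*, which were themselves called as higher in the Rnf146 libraries, so it is not independent of the group. The part of striatal cells, oligodendrocytes, their precursors and interneurons in the values of *Jag1* was not tested.

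**Figure D2:**
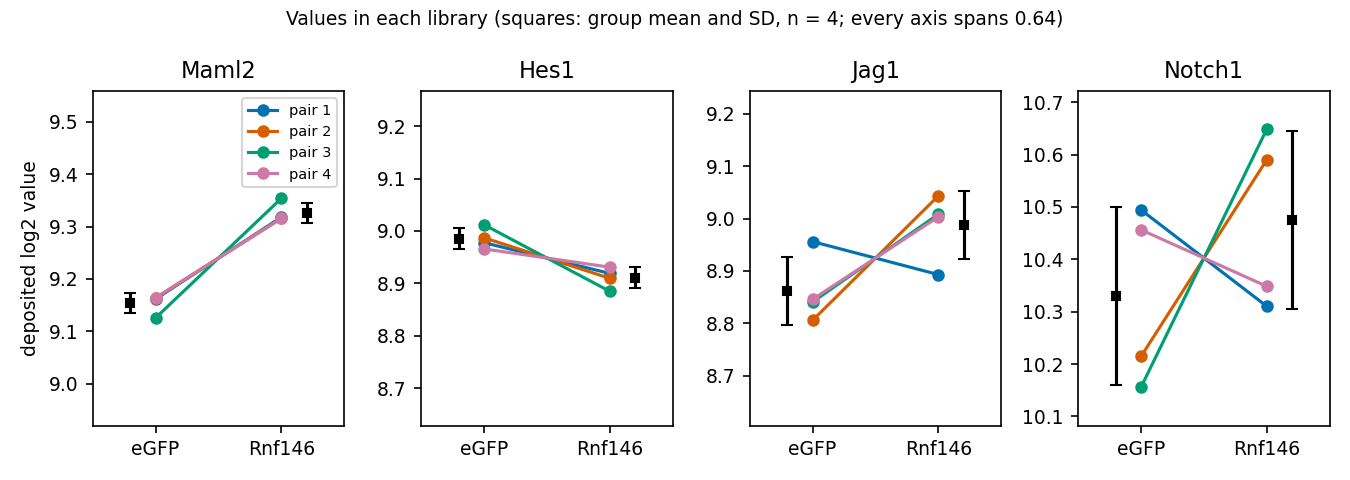
Deposited log2 values of *Maml2*, *Hes1*, *Jag1* and *Notch1* (y axes, each spanning 0.64) in the 4 eGFP and 4 Rnf146 libraries (x axes). Lines join the libraries of a pair, and squares with bars are the group mean ± SD (n = 4). The lines of *Maml2* all rise and those of *Hes1* all fall, whereas those of *Notch1* cross.

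*Rbpj* (chromosome 5, 53623494 to 53814704, plus strand) encodes the factor that holds the Notch complex on DNA and that represses the same genes when no Notch domain is bound. Its differences were 0.03, 0.01, 0.22 and -0.07, and their mean, 0.05 ± 0.12 (SD, n = 4 pairs), did not exceed the spread (adjusted p = 0.796 from limma). The 0.22 of pair 3 set the sign, since without that pair the mean was -0.01. The annotation lists processed pseudogenes of *Rbpj* that could share reads with it, and how the authors' quantification divided such reads was not tested.

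*Maml2* (chromosome 9, 13298302 to 13620684, plus strand) encodes a Mastermind-like coactivator, which binds the complex of the Notch domain and RBPJ and recruits histone acetyltransferases. The study had already named *Maml2* as an upregulated target of the transcription factor TCF4 in these libraries, so its direction is no separate evidence here. Its values were 9.16, 9.16, 9.13 and 9.16 in the eGFP libraries and 9.32, 9.32, 9.35 and 9.32 in the Rnf146 libraries. Every Rnf146 library lay above every eGFP library, and the lowest and highest of the 8 values both belonged to pair 3. The mean difference of 0.17 was more than 4 times its SD over the 4 pairs, 0.038, with a 95% confidence interval from 0.07 to 0.28. The unadjusted p was 0.00473 and the adjusted p 0.174 from limma with the block, so the gene missed the threshold. These rest on limma's standard error of 0.0452, which also draws on the spread of other genes. The adjusted p was 0.00221 without the block and lay between 0.131 and 0.752 in the other alternatives, all with the block.

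*Maml1* (chromosome 11, 50146461 to 50183190, minus strand), the other Mastermind gene of the list, was lower in 3 pairs and higher in pair 2. Its differences were -0.04, 0.08, -0.08 and -0.03, on average -0.02 ± 0.07 (SD, n = 4 pairs) and a 95% confidence interval from -0.13 to 0.09. The groups overlapped (adjusted p = 0.924 from limma). The difference of *Maml2* exceeded that of *Maml1* in every pair, by 0.20, 0.07, 0.31 and 0.19, on average by 0.19 ± 0.10 (SD, n = 4 pairs). The exact sign-flip test gave a two-sided p of 0.125, the smallest that 4 pairs allow. *Maml2* was known beforehand to be higher in all pairs, so this comparison is a description and not a test. An offset scale can also change such a comparison between genes of unequal level. *Maml3*, the third gene of the family, had differences of -0.27, 0.05, 0.08 and -0.02 (adjusted p = 0.854 from limma).

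The 5 genes of the table whose 4 differences lay closest to those of *Maml2*, by Euclidean distance over the 4 pairs, were *Sdc2*, *Lrig3*, *Cpne2*, *Ncapg2* and *Cux1*, at distances of 0.044 to 0.061. *Sdc2* encodes a cell surface proteoglycan and *Cux1* a homeobox transcription factor of cortical neurons, and their mean differences were 0.16 and 0.19. The members of the Notch list were left out of that ranking, and their distances were taken separately. The closest member was *Jag1* at 0.24, with 1209 other genes closer to *Maml2*. *Maml1* was at 0.42, with 7915 genes closer.

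The 3 target repressors are transcription factors of the basic helix-loop-helix class that hold back neuronal differentiation. *Hes1* (chromosome 16, 29882134 to 29886643, plus strand), with the pair of motif matches printed above, had values of 8.98, 8.99, 9.01 and 8.97 in the eGFP libraries and 8.92, 8.91, 8.88 and 8.93 in the Rnf146 libraries. All Rnf146 libraries lay below all eGFP libraries, with differences of -0.06, -0.08, -0.13 and -0.03. The mean difference was -0.07 ± 0.04 (SD, n = 4 pairs), with a 95% confidence interval from -0.18 to 0.03. Its adjusted p was 0.532 from limma with the block and 0.0487 without it. *Hes1* was thus lower and *Maml2* higher in all 4 pairs, where 20.6% of all genes had the same direction in all 4. Neither gene was called.

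*Hes5* (chromosome 4, 155045373 to 155046828, plus strand) had values of 9.01, 9.13, 9.13 and 8.95 in the eGFP libraries and 9.12, 9.003, 9.01 and 9.18 in the Rnf146 libraries. It was higher in pairs 1 and 4, by 0.12 and 0.23, and lower in pairs 2 and 3, with -0.13 and -0.12. The mean of 0.02 ± 0.18 (SD, n = 4 pairs) was far below the spread between pairs, with an adjusted p of 0.929 from limma and a 95% confidence interval from -0.13 to 0.18. Its mean was -0.0063 without pair 1 and -0.04 without pair 4. The signs of *Hes5* were opposite to those of *Notch1* in all 4 pairs, as they were for 4.04% of all genes.

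*Hey1* (chromosome 3, 8726956 to 8732385, minus strand) had the smallest mean difference of the 10 genes. Its values lay between 10.54 and 10.57 in all 8 libraries, and its differences were -0.01, 0.02, -0.02 and 0.0002. The mean of -0.0039 ± 0.019 (SD, n = 4 pairs) had a 95% confidence interval from -0.10 to 0.09 and an adjusted p of 0.984 from limma. The intervals of the 3 repressors reached no higher than 0.18 and no lower than -0.18 on the deposited scale. *Hes1* and *Hes5* had low mean values, 8.95 and 9.07, where the offset of the scale may compress differences.

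Astrocytes and endothelial cells are among the cells that express these receptors and repressors in the adult cortex, and their marker lists differed by less than the spread between pairs. The 9 astrocyte genes, all in the table, differed by -0.04 ± 0.07 (SD, n = 4 pairs). The 7 endothelial genes, all in the table, differed by 0.01 ± 0.08 (SD, n = 4 pairs). Of these 16 genes, 0 were called. Genes that the study lists as differing in these libraries had been kept out of all marker lists. Low counts of called markers were thus favoured beforehand and are no separate evidence about cell types. Library means of the astrocyte list ran from 12.23 to 12.31 in the eGFP group and from 12.21 to 12.29 in the Rnf146 group, and those of the endothelial list from 9.62 to 9.71 in the eGFP group and from 9.65 to 9.74 in the Rnf146 group. The 7 marker genes of cortical excitatory neurons were all in the table and differed on average by -0.17, -0.32, -0.03 and -0.17 in the 4 pairs. At an unadjusted p under 0.05 there were 4 of the 7, against 12.4% of all genes, and 0 were called. The striatal list had 8 of 9 genes at that limit and the oligodendrocyte list 7 of 7, also with 0 called.

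Of 57 further genes of the pathway, 53 were in the table, all but *Dll3*, *Hes2*, *Hes3* and *Hes7*. Of these 53 genes, 1 was called as higher and 0 as lower. Their median difference was -0.03, against 0.0009 over all genes, and their differences were above 0 for 21 genes and below 0 for 32. At an unadjusted p under 0.05 there were 3 higher and 3 lower genes, 11.3% of the 53 against 12.4% of all genes, and the called share was 1.89% against 1.25%.

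The called gene was *Dlk1* (chromosome 12, 109418749 to 109429262, plus strand), an imprinted gene whose membrane protein resembles the Delta ligands without their receptor-binding DSL domain and is known as an inhibitor of Notch. Its values were 9.01, 8.95, 9.32 and 9.10 in the eGFP libraries and 10.08, 10.13, 9.76 and 9.99 in the Rnf146 libraries. All Rnf146 libraries were higher, by 1.08, 1.18, 0.44 and 0.89, so the groups did not overlap. The mean of 0.90 ± 0.33 (SD, n = 4 pairs) had a 95% confidence interval from 0.65 to 1.14 and an adjusted p of 0.0161 from limma. The study lists *Dlk1* among the genes that differ in these libraries. The adjusted p was 0.138 without pair 4, and it was 0.341 with the covariate of striatal and septal markers, under which the difference was 0.87.

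The septal and basal forebrain markers used here, *Zic4* and *Slc5a7*, 2 of a list of 7, were both called as higher, with an average difference of 0.34, 0.62, 0.24 and 0.50 in the 4 pairs. Library means of the 2 genes ran from 8.88 to 9.07 in the eGFP group and from 9.31 to 9.50 in the Rnf146 group. *Dlk1* and this list both had their smallest difference in pair 3 and their largest in pair 2. The order of pairs 1 and 4 was not shared, with 1.08 and 0.89 for *Dlk1* against 0.34 and 0.50 for the list. How many of all genes share this order was not counted. The part of septal cells in the values of *Dlk1* was not tested.

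**Figure D3:**
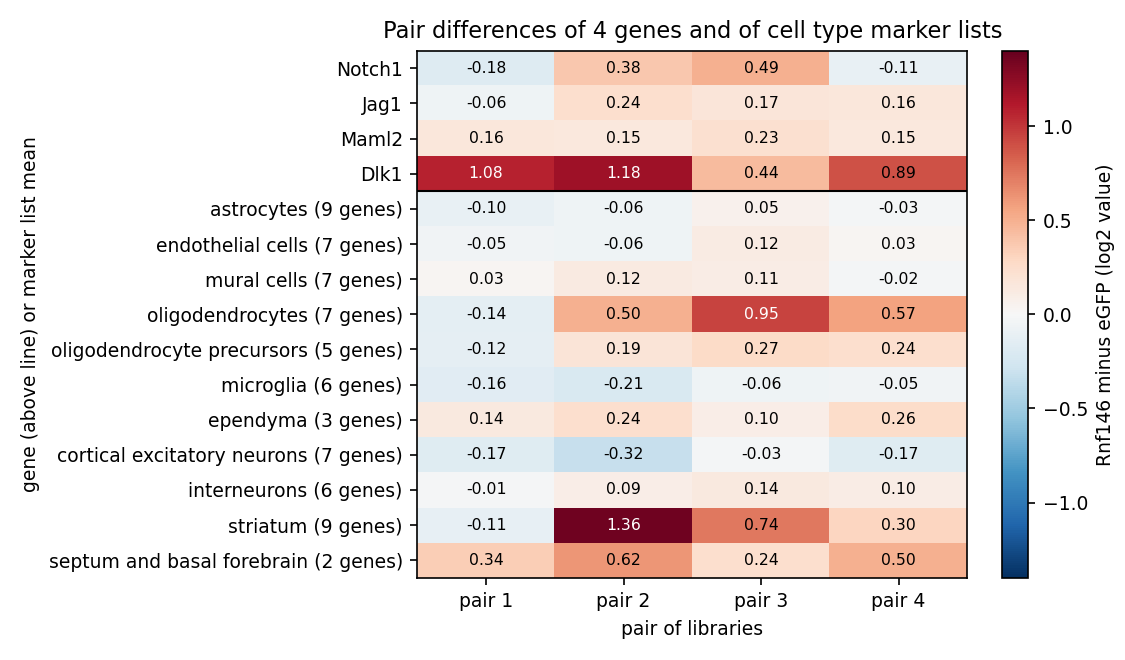
Differences between the Rnf146 and the eGFP library (colour and printed value, deposited log2 values) in the 4 pairs (columns) for *Notch1*, *Jag1*, *Maml2* and *Dlk1* above the line and for the mean of each marker list below it. *Jag1* has the signs of the striatal, oligodendrocyte, precursor and interneuron lists in every pair. *Maml2* and *Dlk1* are above 0 in all 4, as are the ependyma list and the septum and basal forebrain list.

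The other ligands and receptors were not called. *Jag2*, *Dll1*, *Dll4*, *Dlk2*, *Dner* and *Notch4* had differences between -0.13 and 0.11. None of the 9 genes for cleavage of ligand and receptor was called, among them the γ-secretase subunits and the ADAM proteases, and their differences ran from -0.08 to 0.04. None of the 5 genes for glycosylation of the receptors was called either (-0.04 to 0.09). None of these 14 genes had an unadjusted p under 0.05.

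Among 13 genes for trafficking, ubiquitination and inhibition, 10 had a mean difference below 0, as did 7441 of all 15039 genes, and 0 were called. At an unadjusted p under 0.05 there were 3, all lower, which is 23.1% against 12.4% of all genes. *Neurl1b*, a ubiquitin ligase for Notch ligands, had -0.10, -0.31, -0.27 and -0.17, averaging -0.21 ± 0.09 (SD, n = 4 pairs, adjusted p = 0.142 from limma). *Numbl*, which is related to the Notch inhibitor Numb, had -0.19, -0.20, -0.14 and -0.23, averaging -0.19 ± 0.037 (SD, n = 4 pairs, adjusted p = 0.119 from limma). Both genes were lower in all 4 pairs, where 20.6% of all genes had the same direction in all 4. Both missed the threshold, and the study lists *Numbl* among the genes that differ in these libraries.

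Of the 7 coactivators and 9 corepressors outside the 10 genes, 0 were called. *Kat2b*, a histone acetyltransferase found in Notch activator complexes, differed by 0.28, 0.08, 0.18 and 0.06, averaging 0.15 ± 0.10 (SD, n = 4 pairs, adjusted p = 0.305 from limma). *Hdac1*, a histone deacetylase of the RBPJ repressor complex, differed by 0.19, 0.05, 0.13 and 0.11, averaging 0.12 ± 0.06 (adjusted p = 0.344 from limma). *Mamld1*, a protein with similarity to the Mastermind family, had 0.14 in pair 1 and -0.34 to -0.13 in the others (adjusted p = 0.487 from limma). *Hes6*, *Hey2* and *Heyl*, the remaining genes of the Hes and Hey families, lay between -0.09 and 0.05, and none was called.

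**Figure D4:**
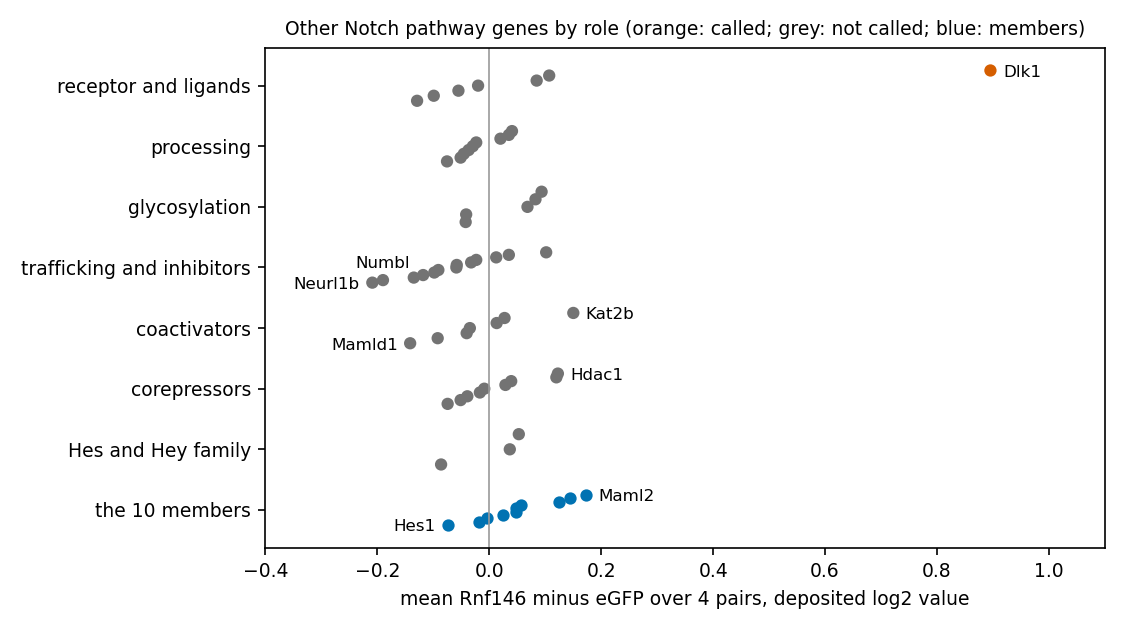
Mean difference between Rnf146 and eGFP libraries over the 4 pairs (x axis, deposited log2 values) for 53 further Notch pathway genes by role and for the 10 genes described here (rows). Each point is a gene, orange where called, grey where not, and blue for the 10 genes. *Dlk1* at 0.90 stands apart, and the other points lie between -0.21 and 0.17.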

How the data were processed

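RNA of 8 PFC libraries was measured, 4 per group, with groups and replicate numbers from the sample labels. The authors trimmed reads with cutadapt, quantified transcripts with Salmon 1.9.0 against GENCODE vM30 (GRCm39), and named DESeq2 in their processing notes. The deposited values, called normalized counts, are log2 values centred within pairs (largest spread of a gene's pair sums 1.4e-13). The transformation and the centring tool are not given in the sources used here. No count test was run, and depth is unknown. The library kit was stranded, and long noncoding genes on the opposite strand overlap the members (GENCODE vM39). *Notch1*, *Notch2*, *Rbpj* and *Maml2* also overlap noncoding or unclassified genes on their own strand, whose reads strand cannot separate.

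Differences over all 15039 genes came from limma 3.58.1 under R 4.3.3 (eBayes with trend, replicate block, 3 residual degrees of freedom) with a threshold of 0.1 on the adjusted p. The centring fixes the correlation of same-numbered libraries' deviations at -1, and the pairing comes from the replicate numbers and this centring. The test was tried on simulated data with shifts larger than any mean difference of the members. That does not show how often it would find differences as small as theirs. Remaining steps used Python 3.11.15, numpy 2.4.6, scipy 1.17.1 and pandas 2.3.3. The text names all members, the called pathway genes, the 3 pathway genes with the largest difference in each direction and the 5 genes nearest to the member with the smallest p; *Maml3* and genes given only by range were added after their values were seen. Members, lists, block and tests were chosen with earlier results of these data known. Alternatives were no block, quantile normalization, median centring, leaving out genes below the 0.25 quantile of the mean value, untrended or robust variances, array weights, a striatal and septal covariate, an adjusted p of 0.05 and leaving out each pair.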

Additional observations from a re-analysis of the deposited data

Results flagged for a closer look

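In groups of 4, the gap between an extreme value and its neighbour was divided by the range and compared with Dixon's 95% critical value, over the pair differences of 11 genes. Chance passes about 1 in 20 groups. *Maml2* passed at 0.940 through the 0.23 of pair 3, against 0.15 to 0.16 in the other pairs. *Notch3* passed at 0.905 through the -0.0057 of pair 3, against 0.07 to 0.08 in the others.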

How the results depend on the processing

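None of the 10 members was called in the fit with the block or in any alternative except the fit without the replicate block, which called 3 (*Maml2*, *Jag1* and *Hes1*). With genes below the 0.25 quantile of the mean value left out, 8 members were tested, all but *Jag1* and *Hes1*. Among all genes, 188 were called, against 3226 with no replicate block, 355 with array weights, 5 with the striatal and septal covariate, 80 at an adjusted p of 0.05, and 14 to 421 with a pair left out. Of the other pathway genes 1 was called, against 11 with no replicate block, 3 with array weights, 0 with the covariate and 0 to 2 with a pair left out. The covariate turned *Notch1* to -0.13 and *Notch2* to -0.0053, lowered *Jag1* to 0.008 and raised *Hes5* to 0.16. With a pair left out, the ranges that crossed 0 were -0.011 to 0.087 for *Rbpj*, -0.052 to 0.0017 for *Maml1*, -0.0435 to 0.0745 for *Hes5* and -0.012 to 0.003 for *Hey1*. *Maml2* stayed between 0.15 and 0.18, and its difference minus that of *Maml1* between 0.15 and 0.23. *Dlk1* lost its call with the covariate and without pair 4, at differences of 0.87 and 0.90 against 0.90. The cause was not tested in these cases. Unknown depth, an offset scale and 4 pairs limit what small differences can show.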
